A study of Arabidopsis thaliana with 4 samples.

Results

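The 5 oleosin genes OLEO3, AT1G48990, AT3G01570, AT3G18570 and AT2G25890 were examined in abscisic acid-treated Arabidopsis thaliana seeds. They are all the listed oleosin genes that had a probe set paired with that gene alone, and they were 5 of the 16550 genes with a probe set of their own on the array. Each had 1 probe set, and none of these shared its 4 values with another probe set. The reference annotation TAIR10.1 names OLEO3 (AT5G51210) as an oleosin and gives the other 4 by locus code only, so those are called oleosins as listed. Wild-type seeds of Ler-0 were compared with seeds carrying the mutant allele wrky43-1, a lesion in the transcription factor gene WRKY43. Every sample started from 10 mg of dry seeds, held for 4 days in 0.5 MS (a liquid salt medium for plants) with abscisic acid at 2 µM. Abscisic acid is the plant hormone of seed dormancy and drought and delays germination. The treatment was shared by both genotypes, and no untreated seeds were part of the comparison. Each genotype had 2 biological replicates, each on its own array, and the mutant was represented by a single allele.

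Oleosins are small proteins of the oil body, the droplet in which a seed stores triacylglycerol. A long hydrophobic hairpin, bent at a conserved proline knot, anchors each molecule in the oil, while its ends lie on the droplet surface. The coat of oleosin keeps oil bodies small and stops them from fusing when the seed dries, and it is taken down when the oil is used after germination. Their genes are switched on during seed maturation, a programme that abscisic acid promotes. OLEO3 and AT3G01570 belong to the oleosins known from seeds, whereas AT1G48990, AT3G18570 and AT2G25890 belong to a group known from seeds and from pollen.

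The values are log2 signals of probe sets, from 1.18 to 14.27 over all 38408 probe sets, and the arrays had medians of 4.34 to 4.43. No detection calls were used, and precision is limited by how few arrays there were. Probe sets differ in how brightly they report, so a percentile of signal, given here only to show how far a probe set stood from the dim end of the array, is not an amount of RNA relative to another gene. No probe set was paired with WRKY43 alone (0 found), so the mutation could not be checked on these arrays. Of 6 markers of maturing or dry seed 3 were measured. The storage protein gene PAP85 lay at percentile 99.6 of mean signal, the late embryogenesis gene M17 at 97.8 and the cupin gene AT1G03890 at 69.8. The 5 oleosin probe sets also lay in the upper part of the signal range, at percentiles 81.7 (OLEO3), 83.9 (AT3G18570), 88.0 (AT3G01570), 89.3 (AT1G48990) and 94.5 (AT2G25890). The measured markers of photosynthetic tissue lay at 93.1 (LHCB4.1), 69.8 (LHB1B2) and 46.6 (PRK). The 2 measured pollen markers, PPME1 and AT5G07430, lay at percentiles 10.0 and 31.4, and the only measured tapetum marker, AT4G20420, lay at 18.5.

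All 5 oleosin signals differed between the genotypes by at most 1.28-fold, and not all in the same direction. AT1G48990 read lower in both mutant samples, with a mean 22.0% below that of wild type, and AT2G25890 read higher in both. OLEO3, AT3G01570 and AT3G18570 differed by less than 0.1 on the log2 scale. None of the 5 genes passed an adjusted p of 0.05 in limma (0 of 5), where 0.0026% of all probe sets passed as higher and 0% as lower. The only probe set that passed had a log2 difference of 4.54. A call depends on the difference over its SE and on the number of probe sets tested. This 1 value therefore does not show what size can be called. With 2 arrays per genotype, a difference that was not called is not shown to be absent. At an unadjusted p under 0.05, where 6.11% of the probe sets with 1 gene were lower and 5.53% higher, 1 of the 5 was lower (AT1G48990) and 0 were higher. These samples are whole seeds, in which fewer cells of a type and less RNA per cell cannot be told apart.

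**Figure D1:**
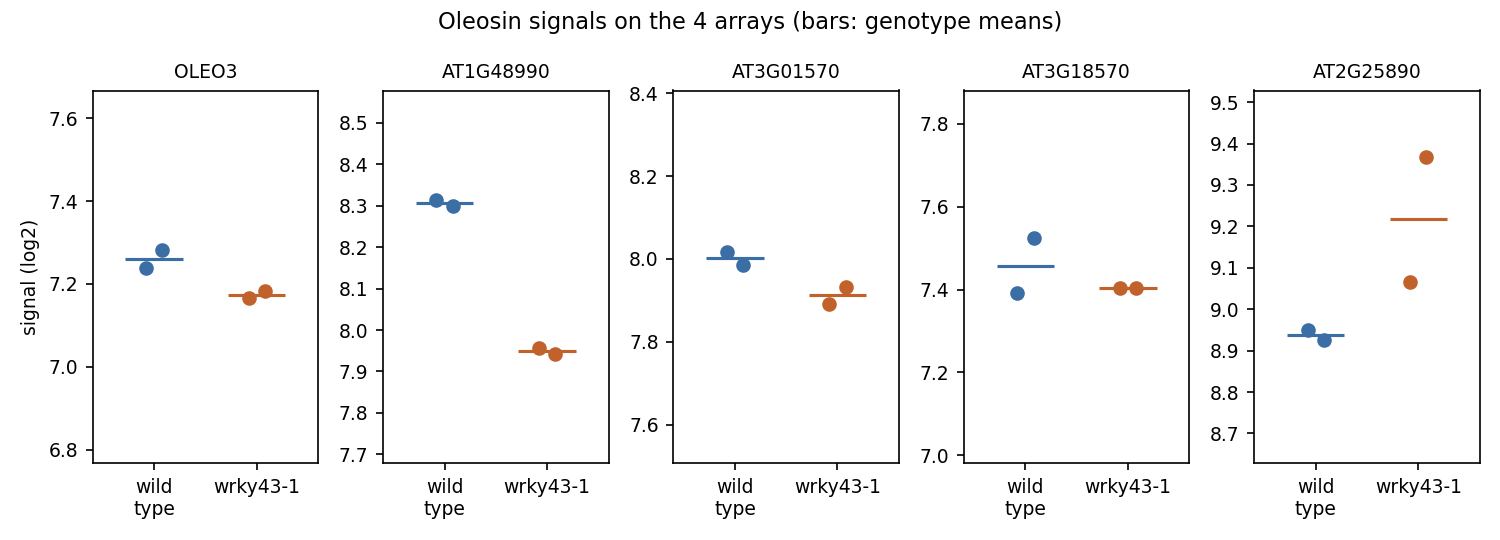
Log2 signal of each oleosin gene on the 2 wild-type arrays (blue) and the 2 wrky43-1 arrays (orange). Horizontal bars are genotype means, each panel has its own position on the vertical axis, and all panels span the same log2 range. The mutant points of AT1G48990 lie below and those of AT2G25890 above both wild-type points, while those of AT3G18570 lie within the wild-type range.

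Among the oleosins known from seeds, OLEO3 read 7.24 and 7.28 in wild type and 7.17 and 7.18 in wrky43-1. Both mutant values lay below both wild-type values, with 0.055 between the nearest arrays of the genotypes. The mean was 7.26 ± 0.031 (SD, n = 2) in wild type and 7.17 ± 0.012 (SD, n = 2) in wrky43-1, a log2 difference of -0.09 (SE 0.11, limma adjusted p = 0.766). The 95% interval of the difference ran from -0.39 to 0.22, so a change of up to 1.31-fold lower or 1.17-fold higher lay within it.

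AT3G01570 read 8.02 and 7.99 in wild type and 7.89 and 7.93 in wrky43-1. Here too the mutant samples were the lower ones and the groups did not overlap, with a gap of 0.054. The log2 difference was -0.09 (SE 0.11, 95% interval -0.40 to 0.22, limma adjusted p = 0.755). OLEO3 and AT3G01570 thus gave nearly the same small difference: the difference between their signals within an array changed by 0.0036 between genotypes, and its groups overlapped.

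In the group known from seeds and pollen, AT1G48990 had the largest difference of the 5 genes. It read 8.31 and 8.30 in wild type and 7.96 and 7.94 in wrky43-1. The 2 arrays of each genotype were 0.015 apart, and the nearest arrays of different genotypes were 0.34 apart. The mean was 8.31 ± 0.011 (SD, n = 2) in wild type and 7.95 ± 0.011 (SD, n = 2) in wrky43-1, which made the wild-type signal 1.28-fold higher (95% interval 1.04 to 1.58). The log2 difference of -0.36 (SE 0.11) had an unadjusted p of 0.0309 and a limma adjusted p of 0.270, and it missed the threshold.

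The replicates of AT1G48990 were closer to each other than those of most genes, since 99.4% of genes had a larger replicate SD. limma draws so small an SD towards that of all probe sets, from 0.011 to 0.11 here, and the p above rests on the larger value. In 11.5% of all probe sets the p was smaller, and 8.43% of genes had an equal or more negative difference.

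AT3G18570, of the same group, read 7.39 and 7.52 in wild type and 7.40 in both wrky43-1 samples. The mutant values fell between the wild-type ones, so the groups overlapped. The log2 difference was -0.05 (SE 0.12, 95% interval -0.38 to 0.27, limma adjusted p = 0.873). Its sign depended on wild-type replicate 2: without that array the difference was 0.012.

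AT2G25890 read 8.95 and 8.93 in wild type and 9.07 and 9.37 in wrky43-1. Both mutant samples were above both wild-type samples, but they differed from each other by 0.30, against 0.025 between the wild-type arrays. The mean was 8.94 ± 0.017 (SD, n = 2) in wild type and 9.22 ± 0.21 (SD, n = 2) in wrky43-1, which made the mutant signal 1.21-fold that of wild type (95% interval 0.912 to 1.61). The log2 difference was 0.28 (SE 0.15, limma adjusted p = 0.453). Its size rested on single mutant arrays: it was 0.43 without wrky43-1 replicate 1 and 0.13 without wrky43-1 replicate 2. An equal or larger difference was found in 12.2% of genes.

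Counted together, 4 of the 5 oleosin genes had a difference below 0, as did 52.6% of the probe sets with 1 gene. The genotypes did not overlap as lower in 3 of the 5 (OLEO3, AT1G48990 and AT3G01570), against 25% of the probe sets with 1 gene, and as higher in 1 of the 5 (AT2G25890), against 21.7%. The median log2 difference of the 5 genes was -0.09, beside 0.00093 over all probe sets and -0.015 over the 16550 genes. Centring of the arrays on a common median shifted every difference by -0.073, to medians of -0.16 for the 5 genes, -0.072 over all probe sets and -0.088 over the genes.

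**Figure D2:**
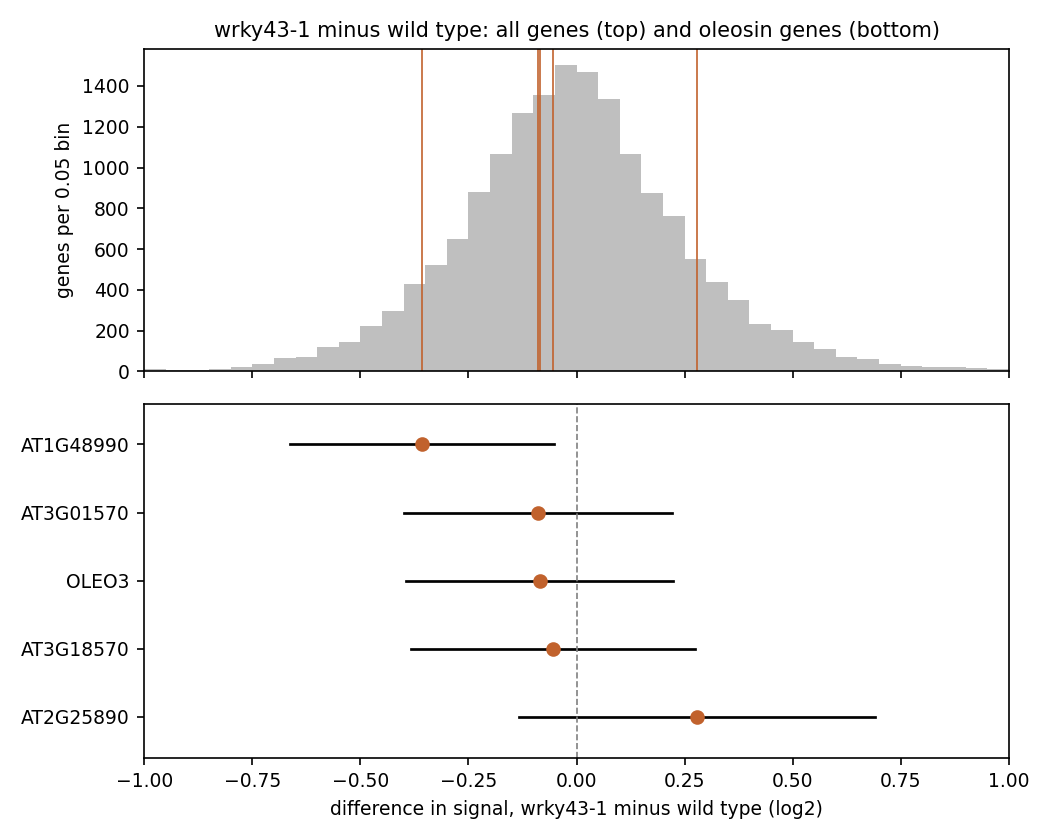
Top, the number of genes in each 0.05-wide bin of the log2 difference, wrky43-1 minus wild type, with orange lines at the 5 oleosin genes. Bottom, the difference of each oleosin gene (point) with its 95% interval from limma (line), where only the interval of AT1G48990, which takes no account of the number of probe sets tested, leaves out 0.

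The oleosin genes are short, between 722 bp (AT1G48990) and 889 bp (AT3G01570) from start to end in TAIR10.1. Differences between these genotypes went with gene length, and the part of length in the oleosin values was not tested. The median log2 difference was -0.47 for genes of 8000 bp or more and -0.0019 for the 895 genes of 700 to under 900 bp, of which 19.8% did not overlap as lower. Below 4000 bp the median had no steady course: -0.016 under 700 bp, 0.024 from 900 bp and -0.0037 from 1500 bp. From 4000 to under 8000 bp it was -0.18. With a straight-line trend on gene length removed, the difference was -0.14 for OLEO3 and -0.11 for AT3G18570. A straight line does not describe the short genes, so these values are not a correction for the length of the oleosin genes. The 5 genes lie on chromosomes 1, 2, 3 and 5, with AT3G01570 and AT3G18570 both on chromosome 3. For AT1G48990, 0 of the 10 nearest measured genes on its chromosome, 5 on each side, had a more negative difference (their range was -0.24 to 0.51). For AT2G25890, all 10 of 10 had a smaller one (-0.49 to 0.25). Over all genes, 8.43% had a difference equal to or more negative than that of AT1G48990. A difference equal to or above that of AT2G25890 was found in 12.2% of genes. With shares this small, 0 of 10 neighbours is a usual count. Of the 10 neighbours, 5 were more negative than OLEO3, 2 than AT3G01570 and 6 than AT3G18570. The shares of all genes at or below these 3 genes were 37.6%, 37.0% and 42.8%.

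The members were also compared within each array, where a scaling of the whole array cancels. Pairs that held AT1G48990 or AT2G25890 restate the differences of these 2 genes against another oleosin. The 3 pairs among OLEO3, AT3G01570 and AT3G18570 overlapped between genotypes, with changes of -0.035 to 0.0036 on the log2 scale. The log2 signal of OLEO3 minus that of AT1G48990 was -1.08 and -1.02 in wild type and -0.79 and -0.76 in wrky43-1, a change of 0.27. AT1G48990 thus read lower relative to OLEO3 in both mutant samples.

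The widest change was that between AT1G48990 and AT2G25890. Their difference was -0.64 and -0.63 in wild type and -1.11 and -1.43 in wrky43-1, a change of -0.64. An exact permutation test over 2 samples against 2 cannot give a two-sided p below 0.333, so these pairs are given as values, and the change for pairs with AT2G25890 shared the spread of its mutant arrays.

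**Figure D3:**
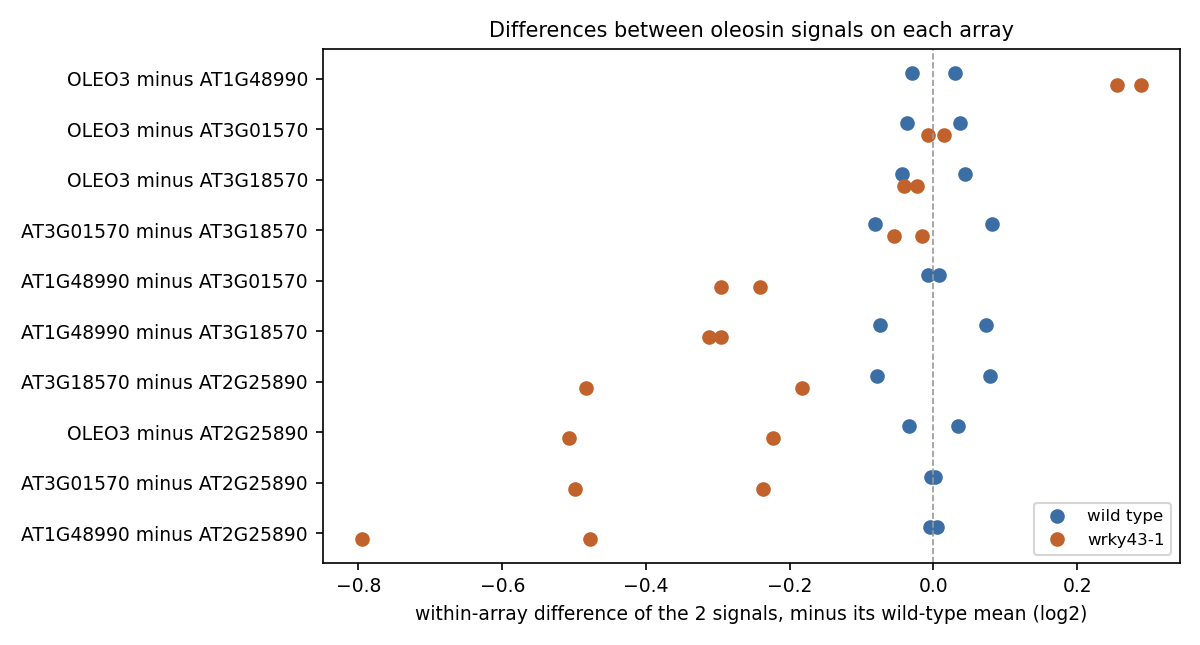
For each of the 10 pairs of oleosin genes, the difference of the 2 log2 signals on each array, minus the mean of that difference in wild type (blue, wild type; orange, wrky43-1). Pairs with AT1G48990 or AT2G25890 have orange points away from the blue ones, as these genes had in the plot of signals, and the 3 other pairs do not.

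Few other genes of the oleosin family had a probe set of their own. Of 3 other seed oleosins 0 were measured, and of 10 genes listed as tapetum oleosins 3 were. Tapetum oleosins are the forms that coat pollen. Among the 3 measured, 1 read higher and 2 lower, and 0 passed in limma, adjusted or unadjusted. AT5G56100, at percentile 89.8 of signal, read 8.51 and 8.31 in wild type and 7.75 and 8.22 in wrky43-1. Its groups did not overlap, the mutant being lower, and the log2 difference was -0.42 (SE 0.21, limma adjusted p = 0.404). AT5G61610 (-0.24, percentile 49.7) and AT5G07600 (0.16, percentile 40.6) overlapped between genotypes. The place of AT5G56100 among the tapetum oleosins is that of the list and was not tested.

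Caleosins are calcium-binding proteins of the oil body surface that share the hairpin anchor of oleosins. Of 7 listed, 3 were measured, all with dim signals at percentiles of 4.78 to 16.1. AT1G70680 read 2.67 and 2.60 in wild type and 2.42 and 2.26 in wrky43-1 (log2 difference -0.29, SE 0.13, limma adjusted p = 0.360), and AT1G23240 (0.0022) and AT1G23250 (0.098) were near 0. Steroleosins, the dehydrogenases of the oil body, had 0 of 6 listed genes measured.

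Of 9 listed genes of other lipid droplet proteins 7 were measured, and 6 of them read higher in wrky43-1 (47.4% of probe sets with 1 gene did so). Of the 7, 0 passed after adjustment and 1 was higher at an unadjusted p under 0.05 (5.53%). This was AT5G16460, which encodes a seipin, a membrane protein at the sites where lipid droplets form. It read 7.53 and 7.55 in wild type and 8.06 and 8.12 in wrky43-1, with no overlap, and its log2 difference was 0.55 (SE 0.12, limma adjusted p = 0.200). AT2G47780, a lipid droplet-associated protein gene, read 10.54 and 10.46 in wild type and 10.70 and 10.72 in wrky43-1 (log2 difference 0.21). AT2G34380, a further seipin gene, read 0.13 on the scale of log2 differences and AT2G31985 read -0.15, and both overlapped between genotypes. The oil body genes measured here therefore included members above and below 0, as the oleosins did.

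Genes that assemble storage oil had 0 of 7 listed members measured. Of 7 genes of oil and oil body breakdown 6 were measured, and all 6 had differences below 0 (52.6% of probe sets with 1 gene), with a median of -0.11. Of the 6, 0 passed after adjustment and 1 was lower at an unadjusted p under 0.05 (6.11%). This gene, AT4G24160, an acyltransferase and lipase gene linked to neutral lipid turnover, read 6.23 and 6.42 in wild type and 5.71 and 5.85 in wrky43-1 (log2 difference -0.55, SE 0.14, limma adjusted p = 0.223). AIM1, of fatty acid beta-oxidation, read -0.17, SDP1-LIKE -0.12 and SDP1, the lipase that opens the breakdown of seed oil, -0.11 on the same scale of differences.

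Storage proteins are laid down in the same seed cells as the oil. Of 11 listed genes 3 were measured, and all 3 had differences below 0 with no overlap (52.6% and 25% of probe sets with 1 gene). Of the 3, 0 passed after adjustment, and 1, AT1G03890, was lower at an unadjusted p under 0.05 (6.11%). AT1G03890, a cupin gene, read 6.84 and 6.75 in wild type and 5.56 and 5.45 in wrky43-1, a log2 difference of -1.29 (SE 0.12, limma adjusted p = 0.144). PAP85 differed by -0.19 and AT2G28490 by -0.14. Of the seed maturation regulators 2 of 11 were measured. BZIP53, which activates maturation genes, read 7.60 and 7.76 in wild type and 8.29 and 8.14 in wrky43-1 (log2 difference 0.53, limma adjusted p = 0.224), and EEL, a further bZIP factor, differed by -0.06 and overlapped.

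**Figure D4:**
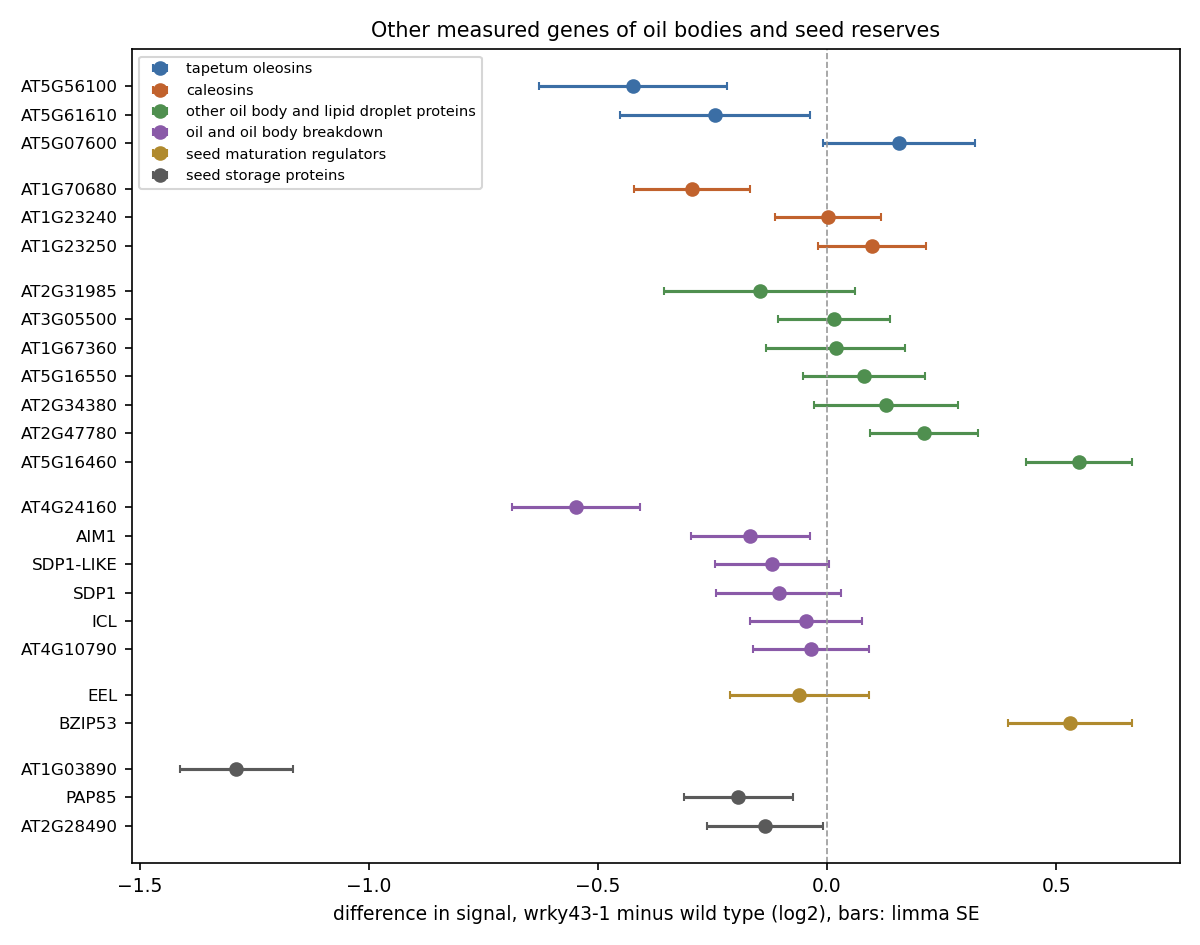
Log2 difference, wrky43-1 minus wild type, of the measured genes of 6 lists of oil bodies and seed reserves, with limma SEs as bars and 1 colour for each list. Most points lie close to 0, AT1G03890 is the lowest at -1.29, and AT5G16460 and BZIP53 are the highest at 0.55 and 0.53.

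Markers of seed and of other tissues are given beside these results, and their part in them was not tested. All 3 measured markers of maturing or dry seed (of 6) read lower in wrky43-1 (52.6% of probe sets with 1 gene did), and 2 of them, PAP85 and AT1G03890, are the storage protein genes already described. They had summed log2 signals of 30.3 to 30.5 in wild type and 28.3 to 28.4 in the mutant; M17 differed by -0.50. The 3 measured markers of photosynthetic tissue (of 6) had a median log2 difference of -0.35 and went different ways. LHCB4.1 (-0.35) and LHB1B2 (-0.60), both of light harvesting, read lower without overlap, and PRK read higher (0.67, SE 0.48) with 1 mutant array at 5.05 and overlapping groups. Their summed signals were 18.8 to 19.4 in wild type and 18.6 to 19.1 in wrky43-1, and those of root (3 of 3) were 8.36 to 8.56 and 8.39 to 8.45. The pollen markers (2 of 3) summed to 5.43 to 5.51 in wild type and 5.32 to 5.78 in wrky43-1, and the tapetum marker (1 of 2) read 2.66 to 2.74 and 2.51 to 2.64.

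For each oleosin gene the genes with the most similar course over the 4 arrays were sought among 8212 genes with a mean above the median gene, by the Euclidean distance of values after subtraction of each gene's mean. AT5G66770 and AT1G19600 lay nearest to OLEO3 (distances 0.0053 and 0.012). CHR18, a chromatin remodelling factor gene, and AT3G14920 lay nearest to AT1G48990 (0.013 and 0.015), and AT1G73570 and the chloroplast gene rps4 to AT3G01570 (0.0070 and 0.013). AT5G22040 and AT3G05900 were nearest to AT3G18570 (0.014 and 0.015), and AT5G10336 and CXE20, a carboxylesterase gene, to AT2G25890 (0.013 and 0.016). With 4 arrays such likeness was common: within a distance of 0.25 there were 3330 genes for OLEO3, 1618 for AT1G48990 and 967 for AT2G25890.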

How the data were processed

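RNA of 4 seed samples was extracted by a hot borate method and biotin-labelled, as the labels' protocols state. The deposited table gives 1 value per probe set and array, and its scale is not stated. It was read as log2 from the deposited values, and the sources used here do not give the normalization or the probe summary.

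Of 38408 probe sets 16722 were paired with 1 gene by the platform annotation, 759 with several and 20927 with none; 16574 of those with 1 gene matched TAIR10.1, which gave symbols, spans and neighbours. No coordinates are given, since the build of the array design is not named. Where a gene had several probe sets the brightest was used. Genotypes were compared with limma 3.58.1 (R 4.3.3; lmFit, eBayes without trend), two-sided, over all probe sets, with Benjamini-Hochberg adjustment called at 0.05. Residual degrees of freedom were 2, and the prior added 2.34. The step was tested on simulated data.

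The oleosin genes and all lists were chosen with earlier results of these data known. Named were the 5 genes, up to 4 genes per list with the smallest p, and the 2 genes nearest to each oleosin gene in pattern. Alternatives covered the block, scaling, filters, the variance prior, weights, gene length and each array left out.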

Additional observations from a re-analysis of the deposited data

How the results depend on the processing

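Of the 65 differences of the 5 oleosin genes under 13 alternatives, 64 kept their direction. The exception was AT3G18570, at 0.012 without wild type replicate 2, where 1 array carried the direction. The differences equalled the main ones with the replicate block, the signal filters, the intensity trend, the array weights and probe sets with 1 gene. Those settings altered only the variance or the probe sets tested, so they put no direction to the test. Leaving out 1 array cannot reverse a gene whose groups did not overlap, which was the case for all but AT3G18570. Centring, a shift of -0.073, cannot reverse a difference below 0. Most of the kept directions were therefore fixed in advance. No oleosin gene passed the adjusted threshold in any alternative with a test (0 called; at an unadjusted p under 0.05, 1 was), and the lowest adjusted p was that of AT1G48990 when the variance prior followed intensity, 0.111. With the replicate block AT1G48990 kept its difference of -0.36 (adjusted p = 0.370) and AT2G25890 its 0.28 (0.504), and the block gave 0 probe sets higher. Samples sharing a replicate number showed no common shift (correlation of replicate deviations -0.026). That value cannot tell whether they were handled together. Probe sets higher, 1 as reported, numbered 2 with the arrays centred, 74 with an intensity trend, 6 when the lowest 50 percent were left out, 12 among probe sets with 1 gene, 3477 at an unadjusted p under 0.05 and 0 to 0 without single arrays. Lower ones, 0 as reported, came to 30 with an intensity trend, to 6 among probe sets with 1 gene and to 2660 at an unadjusted p. The median of the 5 genes was -0.16 with the arrays centred, where every difference shifts by -0.073, and -0.14 with a straight line on gene length removed, which also gave OLEO3 -0.14, AT1G48990 -0.42 and AT3G01570 -0.14. Before that line was removed, genes of 700 to under 900 bp had a median of -0.0019. Beyond the construction of each alternative, the cause was not tested. Without single arrays the differences ran from -0.37 to -0.35 for AT1G48990, from -0.12 to 0.012 for AT3G18570 and from 0.13 to 0.43 for AT2G25890, with 1 residual degree of freedom and the spread of the genotype left with 1 array taken from the other. The mean over probe sets of a gene was not a separate alternative, since each oleosin gene had 1. Signal over background is unknown.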
